A study of Mus musculus with 12 samples.

Results

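Ribosome biogenesis genes encode the machinery that transcribes, modifies and assembles the RNA and protein of new ribosomes. They are described here in mouse regulatory T cells (Treg) that carry or lack Ikaros, the DNA-binding protein encoded by Ikzf1. The genes were chosen as 40 named members of this pathway, of which 39 were found by symbol among the 36222 genes of the table. Noc2l was not analysed here. Of the 39, 38 reached a group mean of 5 TPM (the share of a library's transcripts on a fixed scale, which corrects for transcript length) and were tested. Wdr12 stayed below that level in each group, and its levels are given as values.

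RNA sequencing was done on 12 libraries in 4 groups of 3. Wild-type (WT) Treg came from mice with the Foxp3-YFP-Cre allele, in which Cre and a yellow fluorescent protein are made under Foxp3 control. Ikzf1 conditional knockout (cKO) Treg came from mice that carry this Cre allele and a floxed Ikzf1 allele, so the WT and cKO groups share the Cre. YFP+ Treg were sorted from CD4+ cells of individual mice aged 6 to 8 weeks, with spleen as the labelled tissue. They were either lysed without stimulation (WT ex vivo, cKO ex vivo) or exposed for 4 h to antibodies against CD3 and CD28 coated on plastic, each at 1 µg/ml (WT stimulated, cKO stimulated). Whether ex vivo and stimulated libraries of the same number came from the same mouse is not stated in the sources used here. The stimulated cells were compared with cells that had spent no time in culture, so culture and antibody cannot be told apart.

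Ribosome assembly starts in the nucleolus, where RNA polymerase I copies the ribosomal DNA into a long precursor. Small nucleolar RNA-protein particles (snoRNPs) guide chemical modification of that precursor: box C/D particles carry the 2'-O-methyltransferase fibrillarin, and box H/ACA particles carry the pseudouridine synthase dyskerin. Further factors then cut and fold the precursor into the small and the large ribosomal subunit. In lymphocytes this pathway is known to expand when antigen receptors start cell growth, and the transcription factor Myc is known to act on many of its genes.

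Library depth ranged from 8208659 to 20247649 reads in genes, recovered from the deposited values, and the least covered ribosome biogenesis gene in any library had 73 reads. A repeat-rich gene model, Gm10800, took 17.7% to 55.9% of the deposited TPM of a library, highest in cKO stimulated replicate 3. Levels below are therefore scaled TPM, the deposited TPM divided by a library factor of 0.73 to 1.21. The library cKO stimulated replicate 3 had the lowest depth, and its group had the lowest rank correlation between replicates across genes (0.85 to 0.89). Ikzf1 itself was at 110.1 ± 5.55 scaled TPM in WT ex vivo and 37.9 ± 4.57 in cKO ex vivo, and at 68.9 ± 2.24 and 27.8 ± 3.91 after stimulation (mean ± SD, n = 3). This follows the genotype labels. The 6 Treg markers summed to 1064 to 2086 scaled TPM per library. The B cell, myeloid, CD8 T, NK and erythroid marker lists summed to between 2.23 and 32.9. The median level of olfactory and vomeronasal receptor genes, which T cells are not known to use, was 0.51 to 1.44 scaled TPM and served as a measure of background.

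Several members share sequence with other places in the genome, which limits how surely their reads could be placed. In the mm9 assembly, 8 members had a copy of at least 200 bases at 95% identity or more outside their own locus. Npm1 (chr11:33052287-33063206, minus strand) had 4, the longest over 77.3% of its transcript. Nop56 (chr2:130100166-130105049, plus strand) also had 4, the longest over 43.7%. Fbl and Ddx18 each had a copy over nearly the whole transcript, and Pes1, Wdr12, Tsr1 and Ddx10 had copies over smaller parts. The levels of these 8 genes are uncertain to that extent. None of the 39 shared exon bases with another annotated gene on its own strand, leaving aside small RNA genes.

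The promoters of 34 members were found in RefSeq (assembly GRCm38.p6), each as 250 bases before to 50 bases after the start of transcription. They were searched on both strands for CACGTG, the E-box that Myc binds, for TGGGAA, the core that Ikaros binds, and for CCGGAAG, a core bound by ETS factors. None of these 3 motifs contains another. CACGTG occurred in 9 of 34 (26.5%), compared with 8.09% of 27025 genes. TGGGAA occurred in 13 of 34 (38.2%), compared with 28.3%. CCGGAAG occurred in 13 of 34 (38.2%), compared with 9.93%. The 3 promoters below are shown because each holds the E-box, in capitals, while the RNA of the 3 genes went different ways on stimulation: Nop2 rose, and Utp18 and Tsr1 fell. They lie at chr6:125131633-125131932 on the plus strand for Nop2, chr11:93885717-93886016 on the minus strand for Utp18 and chr11:74897830-74898129 on the plus strand for Tsr1.
Nop2: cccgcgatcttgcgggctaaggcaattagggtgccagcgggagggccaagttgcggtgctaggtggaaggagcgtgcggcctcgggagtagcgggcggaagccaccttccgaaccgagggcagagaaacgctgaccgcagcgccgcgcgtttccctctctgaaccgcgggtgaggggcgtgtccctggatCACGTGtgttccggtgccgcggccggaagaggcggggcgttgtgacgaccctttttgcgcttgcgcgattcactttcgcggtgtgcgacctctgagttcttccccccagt
Utp18: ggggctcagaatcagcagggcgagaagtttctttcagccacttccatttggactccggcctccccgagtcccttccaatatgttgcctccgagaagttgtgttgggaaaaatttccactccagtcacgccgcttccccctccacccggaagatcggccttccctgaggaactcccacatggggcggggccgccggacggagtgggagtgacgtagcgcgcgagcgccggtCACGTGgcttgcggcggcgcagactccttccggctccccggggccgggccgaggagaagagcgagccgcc
Tsr1: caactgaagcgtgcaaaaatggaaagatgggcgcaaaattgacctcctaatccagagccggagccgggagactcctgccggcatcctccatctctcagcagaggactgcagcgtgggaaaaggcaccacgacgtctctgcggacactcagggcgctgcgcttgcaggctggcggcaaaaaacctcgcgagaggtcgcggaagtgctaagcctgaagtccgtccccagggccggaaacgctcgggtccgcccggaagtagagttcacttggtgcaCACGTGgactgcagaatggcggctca
The E-box starts 60 bases before the start in Nop2, 20 bases before it in Utp18, and at base 25 after it in Tsr1. Over all 13318 tested genes, 12.7% rose and 19.3% fell on stimulation in WT Treg, and 17.3% rose and 26.5% fell in cKO Treg. Of the 9 tested genes with the E-box, 1 rose and 4 fell on stimulation in WT Treg, and 1 rose and 4 fell in cKO Treg. Of the 24 tested genes whose promoter lacked it, 0 rose and 8 fell in WT, and 2 rose and 11 fell in cKO. These matches describe the sequence and are not shown to be bound sites.

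Most members were expressed well above background. The median of their mean levels was 17.9 scaled TPM, compared with 10.1 over all tested genes. The highest means belonged to the nucleolar RNA-binding protein nucleolin, Ncl, and the histone and ribosomal protein chaperone nucleophosmin, Npm1. In WT ex vivo Treg, Ncl stood at 102 ± 10.4 and Npm1 at 92.5 ± 9.76 scaled TPM (SD, n = 3), which do not differ beyond their spread. Below them came the RNA helicase Ddx21 at 58.0 ± 6.49, the box C/D protein Nop56 at 57.5 ± 5.01 and the box H/ACA protein Nop10 at 57.4 ± 9.54, which also overlap. The large subunit GTPase Gnl3, known as nucleostemin, stood at 42.7 ± 2.79. At the low end were Noc3l at 9.42 ± 1.13, Nop16 at 6.05 ± 1.41 and Wdr12 at 3.98 ± 0.72, which are all large subunit factors.

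**Figure D1:**
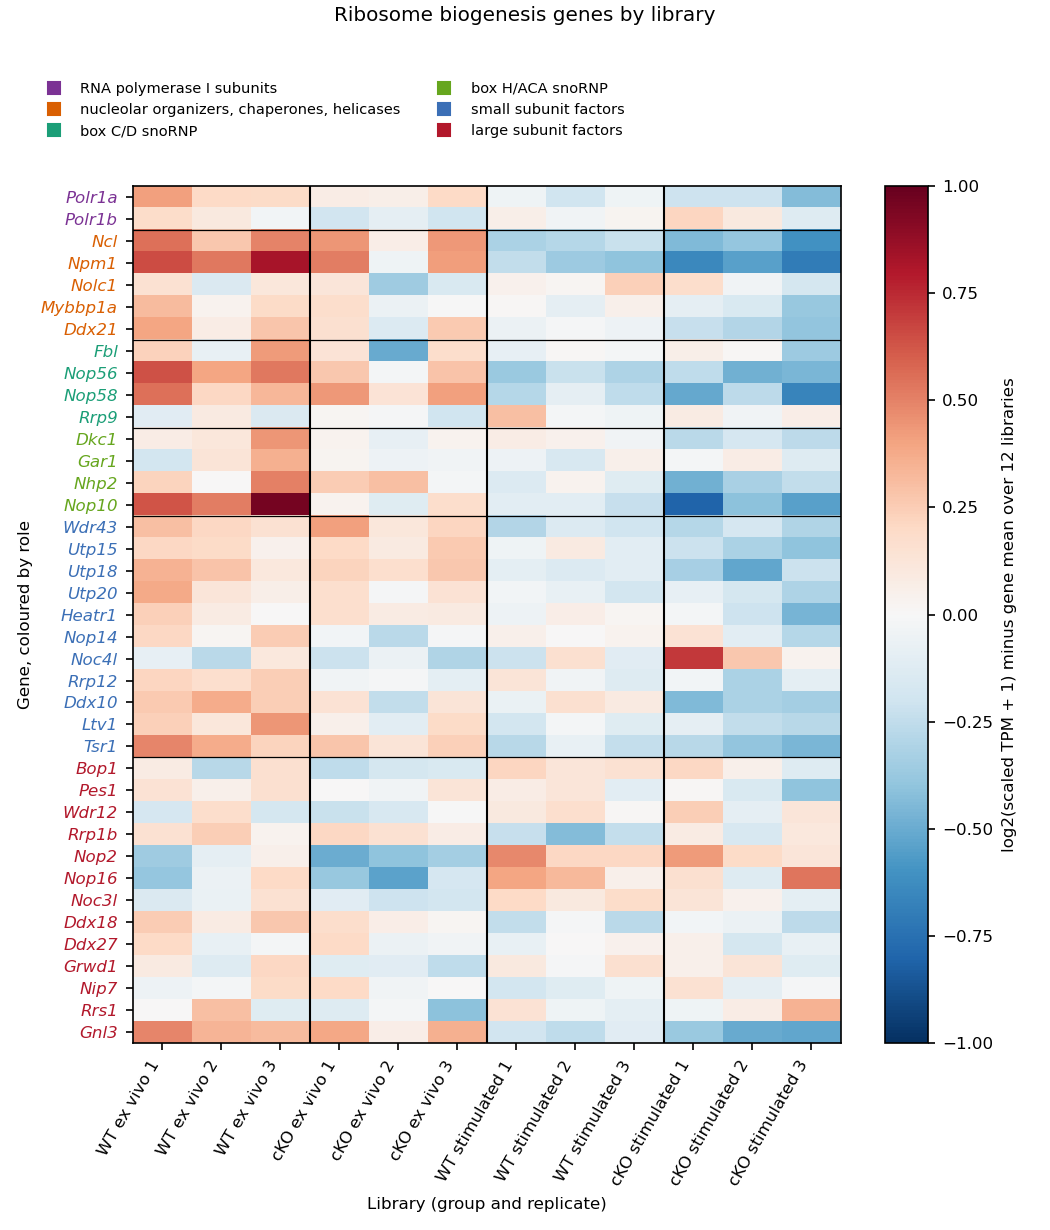
Level of 39 ribosome biogenesis genes (vertical axis, name coloured by role) in 12 libraries (horizontal axis, grouped by genotype and stimulation), as log2(scaled TPM + 1) minus the gene's mean over all libraries; red is above and blue below that mean. Npm1, Ncl, Nop56, Nop58, Nop10 and Gnl3 are red in the WT ex vivo libraries and blue in the stimulated libraries of either genotype, while Nop2 is red in each of the 6 stimulated libraries.

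Members moved together across libraries only in part. Over 703 pairs of tested members, the median correlation across the 12 libraries was 0.36, and 68.6% of pairs were above 0. All 12 points share the 4 groups and the library factors, so this is a description. With the mean of the other members, 23 of 38 correlated above 0.7, led by Ddx21 (0.94), Npm1 (0.93) and Nop56 (0.93). Nop2 (-0.53), Nop16 (-0.43), the U3 particle protein Rrp9 (-0.41) and Noc4l (-0.41) ran against the rest. Outside the listed pathways, the 5 genes whose profile was most like the mean member profile were Tpst2, Add3, Trbv4, Gm8730 and Anapc5 (r between 0.966 and 0.973 over 12 libraries and 13078 genes).

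The first comparison asked how ribosome biogenesis genes differ in ex vivo Treg that lack Ikaros. In cKO ex vivo against WT ex vivo, 1 of 38 members fell and 0 rose by limma (2.63% called, compared with 5.29% of the 13318 genes tested). The number at an unadjusted p under 0.05 was 8 (21.1%, compared with 17.9% of all tested genes). Most estimates lay below 0, 32 of 38, with a median log2 change of -0.15 compared with -0.01 over all tested genes. In bulk RNA, here and below, less RNA per cell and fewer cells of a kind cannot be told apart. In each of the 6 roles the median lay between -0.20 and -0.11. The groups of 3 libraries did not overlap for 8 members, each lower in cKO, or 21.1% of the 38. Over all 13318 tested genes, 21.5% did not overlap in either direction: 1326 genes were lower and 1543 higher in cKO.

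The gene that fell was Nop10 (chr2:112102083-112103426, plus strand), the smallest core protein of the box H/ACA particle, which pseudouridylates ribosomal RNA. It stood at 54.2, 49.9 and 68.2 scaled TPM in the WT ex vivo libraries and at 35.5, 31.8 and 39.2 in the cKO ex vivo libraries. Every cKO library lay below every WT library. The log2 change was -0.67 (SE 0.13, adjusted p = 0.0161). The call was lost without WT ex vivo replicate 3 (adjusted p = 0.0535), without cKO ex vivo replicate 1 (adjusted p = 0.0548) and without cKO ex vivo replicate 2 (adjusted p = 0.0609), with log2 changes of -0.55, -0.68 and -0.60. It was also lost with a filter at 1 TPM (adjusted p = 0.49), with no filter (adjusted p = 0.515), with TPM as deposited (-0.44, adjusted p = 0.339) and in a fit of only the groups compared (adjusted p = 0.0622). The other 3 box H/ACA proteins did not pass the test: the pseudouridine synthase Dkc1 averaged 13.0 in WT and 11 in cKO, Gar1 15.4 and 13.9, and Nhp2 27.1 and 25.8 scaled TPM.

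Other members with non-overlapping groups did not pass the test after adjustment. Nop56, a core box C/D protein, averaged 57.5 ± 5.01 in WT ex vivo and 45.3 ± 5.33 in cKO ex vivo. Npm1 averaged 92.5 ± 9.76 and 72.0 ± 14.1. Polr1b, the second largest subunit of RNA polymerase I, averaged 9.88 ± 0.80 and 8.17 ± 0.41. The small subunit factors Rrp12, Nop14 and the helicase Ddx10 averaged 13.8, 25.3 and 18.4 in WT and 11.4, 21.0 and 15.0 in cKO. Several small subunit factors had nearly equal means, among them Heatr1 at 20.6 in both genotypes and Utp15 at 18.9 in WT and 19.5 in cKO.

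The sign of these small shifts depends on scaling. With TPM as deposited, the median of the main tested genes moved to 0.21 and that of the members to 0.08. The members' median stayed below that of all genes by 0.13, as against 0.14 in the scaled values. In scaled values this gap was 0.09 without WT ex vivo replicate 1 and 0.19 without WT ex vivo replicate 2.

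The same pathway holds other genes, and the ribosome itself holds the ribosomal proteins. Over all tested genes, 5.29% were called in this comparison, 3.62% higher and 1.67% lower. Of 87 further ribosome biogenesis genes tested, 1 rose and 1 fell in cKO ex vivo, with a median log2 change of -0.08. Of 79 cytosolic ribosomal protein genes, 10 fell (12.7%) and 0 rose, and 38 passed an unadjusted p of 0.05 (48.1%), with a median of -0.32. Of 31 genes of the constitutive proteasome, a large complex not involved in ribosome assembly, 0 were called and 2 passed the unadjusted threshold, with a median of -0.01. The summed B cell markers averaged 18.8 scaled TPM in WT ex vivo and 26.2 in cKO ex vivo, led by Cd79b; their part in these differences was not tested.

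**Figure D2:**
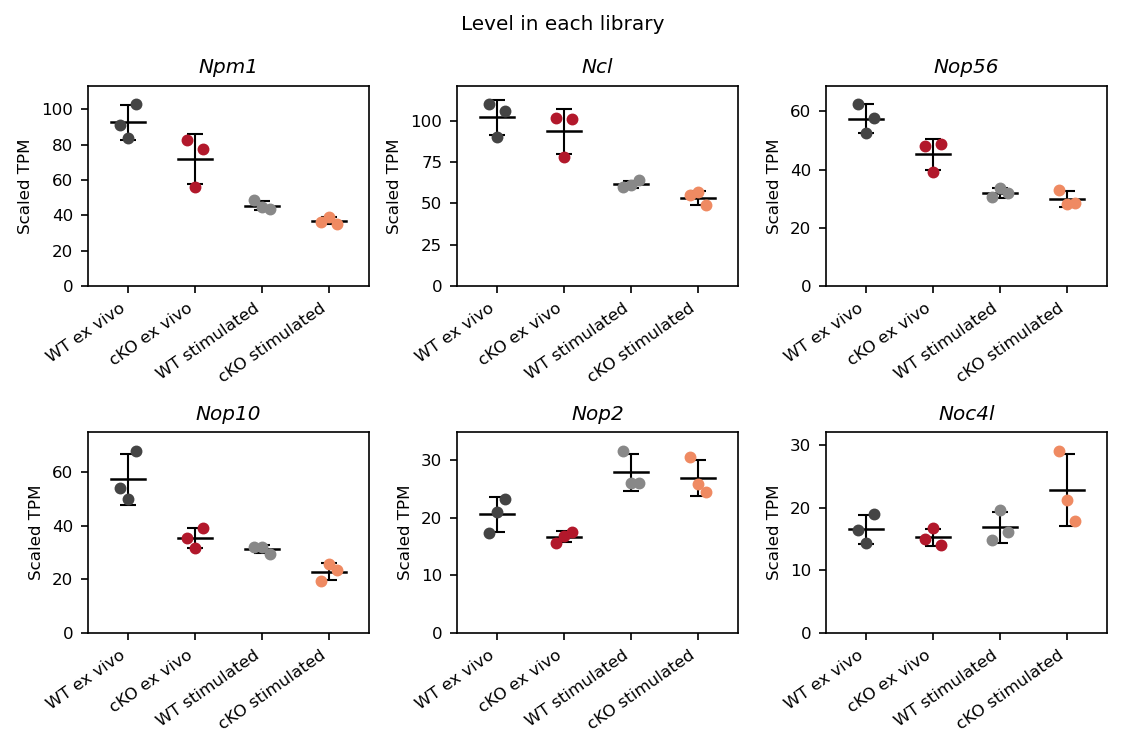
Level in scaled TPM (vertical axis, from 0) of 6 members in each library of the 4 groups (horizontal axis). Points are libraries, the long horizontal line is the mean and the bar is ± 1 SD (n = 3). Npm1, Ncl, Nop56 and Nop10 have their highest mean in WT ex vivo and their lowest in cKO stimulated, Nop2 is higher in the stimulated groups, and the highest Noc4l value is 29.1 in cKO stimulated replicate 1.

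The second comparison set the genotypes side by side after 4 h of stimulation. In cKO stimulated against WT stimulated, 1 of 38 members fell and 0 rose by limma (2.63%, compared with 6.93% of all tested genes), and 10 passed an unadjusted p of 0.05 (26.3%, compared with 23.8%). Of the 38 estimates, 31 lay below 0, with a median of -0.12 compared with -0.03 over all tested genes. This gap of 0.08 was 0.0018 with a filter at 10 TPM, 0.011 with quantile normalization, 0.025 with array weights, 0.036 without cKO stimulated replicate 3 and 0.16 without cKO stimulated replicate 1. The groups did not overlap for 13 members, 12 lower and 1 higher in cKO, or 34.2% of the 38 compared with 30.8% of all tested genes. Of the 13318 tested genes, 2394 were lower and 1711 higher in cKO with groups that did not overlap.

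The called gene was Ddx10 (chr9:52906559-53056217, minus strand), a DEAD-box helicase of the small subunit pathway. It stood at 14.1, 16.7 and 15.8 scaled TPM in the WT stimulated libraries and at 10.7, 11.7 and 11.5 in the cKO stimulated libraries. The groups did not overlap, and the same was seen ex vivo. The log2 change was -0.43 (SE 0.11, adjusted p = 0.0424). This adjusted p lay close to the threshold, and the call was lost without 10 of the 12 libraries in turn, with log2 changes of -0.49 to -0.38 and adjusted p of up to 0.166. Those whose absence kept the call were cKO ex vivo replicates 1 and 2. It was also lost in 6 of 14 other alternatives: with a filter at 1 TPM (-0.70, adjusted p = 0.26) or 10 TPM (-0.32, adjusted p = 0.0501), no filter (-0.70, adjusted p = 0.244), no variance trend (adjusted p = 0.057), the replicate block (adjusted p = 0.083) and only the groups compared (adjusted p = 0.0598).

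Nop10 stood at 32.2, 32.1 and 29.4 scaled TPM in WT stimulated and at 19.4, 25.8 and 23.4 in cKO stimulated. As ex vivo, each cKO library lay below each WT library, but the difference did not pass the test. The UtpA subunit Utp15 averaged 16.7 ± 1.22 in WT stimulated and 13.5 ± 0.96 in cKO stimulated, and the UtpB subunit Utp18 averaged 10.5 ± 0.17 and 8.70 ± 1.03. Gnl3 averaged 28.5 ± 1.45 and 23.3 ± 1.38. In the other direction, Rrp1b, a nucleolar protein of the large subunit pathway, stood at 7.99, 6.82 and 7.96 in WT stimulated and at 10.2, 8.45 and 10.4 in cKO stimulated. It was the member whose cKO values all lay above the WT values, and it did not pass the test either. The background level of receptor genes averaged 0.85 in WT stimulated and 1.13 scaled TPM in cKO stimulated. With that background subtracted from each library, the members' median genotype difference after stimulation went from -0.12 to -0.05, and 1 of 38 members was called. The summed B cell markers averaged 17.1 ± 0.62 scaled TPM in the stimulated WT libraries and 26.4 ± 5.92 in those of cKO, and the NK markers 6.36 ± 1.14 and 8.2 ± 1.6; their part in these differences was not tested.

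Stimulation was the larger contrast for these genes, and most that changed went down. In WT Treg, 13 of 38 members fell and 1 rose. That is 36.8% called compared with 32% of all tested genes, 34.2% lower compared with 19.3%, and 2.63% higher compared with 12.7%. The median log2 change was -0.21, compared with 0.00 over all tested genes. In cKO Treg, 16 of 38 fell and 3 rose. That is 50% called compared with 43.8% of all tested genes, 42.1% lower compared with 26.5%, and 7.90% higher compared with 17.3%. The median was -0.22, compared with -0.01. The groups did not overlap for 18 members in WT, 17 lower and 1 higher (47.4% compared with 47.5% of all tested genes). In cKO they did not overlap for 24 members, 19 lower and 5 higher (63.2% compared with 53.5%). Over the 13318 tested genes, 3508 were lower and 2813 higher in WT, and 4087 lower and 3042 higher in cKO.

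Both the split between falls and rises and the place of the members below the other genes moved with the processing. In cKO the main 3 rises and 16 falls became 10 and 10 with a filter at 10 TPM, 8 and 12 after subtraction of receptor background, 5 and 11 with quantile normalization, 7 and 17 with array weights, 0 and 23 with a filter at 1 TPM, and 0 and 18 with TPM as deposited. In WT the main 1 rise and 13 falls became 3 and 12 with a filter at 10 TPM, 0 and 5 at 1 TPM, and 0 and 2 with TPM as deposited. The members' median lay under that of the main tested genes by 0.21 in WT and 0.21 in cKO. This gap was 0.11 and 0.01 with a filter at 10 TPM, 0.12 and 0.06 with quantile normalization, and 0.16 and 0.12 after subtraction of receptor background. With a filter at 1 TPM it was 0.21 and 0.22.

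The nucleolar organizers and chaperones held the largest fall. Npm1 stood at 91.2, 83.5 and 103 scaled TPM in WT ex vivo and at 48.4, 44.6 and 43.4 in WT stimulated. In cKO Treg it stood at 82.6, 55.9 and 77.4 ex vivo and at 36.5, 39.3 and 35.2 after stimulation. In either genotype each stimulated library lay below each ex vivo library. The log2 change was -1.0 in WT (SE 0.14, adjusted p = 0.000259) and -0.92 in cKO (SE 0.14, adjusted p = 0.000376), and both calls held in each of the 26 alternatives run.

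Ncl (chr1:88241294-88256030, minus strand) also fell in both genotypes. It stood at 110.0, 90.2 and 106 scaled TPM in WT ex vivo and at 59.8, 61.1 and 64.1 in WT stimulated, and at 102, 78.1 and 101 in cKO ex vivo and 54.8, 57.0 and 48.8 in cKO stimulated. The log2 change was -0.71 in WT (SE 0.12, adjusted p = 0.000986) and -0.79 in cKO (SE 0.12, adjusted p = 0.000417). The cKO call held in each of the 26 alternatives. The WT call was lost with a filter at 1 TPM (adjusted p = 0.0537), with no filter (adjusted p = 0.0607) and with TPM as deposited (adjusted p = 0.151). Ddx21, a helicase that links RNA polymerase I transcription and processing, fell in cKO, from 52.1 ± 7.34 to 39.0 ± 2.32, and averaged 58.0 and 47.0 in WT, where it did not pass the test. Nolc1, a chaperone of snoRNPs, averaged 30.6 ex vivo and 31.9 after stimulation in WT, and 27.2 and 29.5 in cKO. Mybbp1a averaged 41.6 and 36.2 in WT and 37.5 and 31.6 in cKO, and passed the test in neither genotype.

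Of the RNA polymerase I subunits, the largest, Polr1a (chr6:71859047-71929350, plus strand), fell in both genotypes. It averaged 19.1 ± 1.78 ex vivo and 14.6 ± 0.99 after stimulation in WT, and 17.0 ± 0.99 and 12.7 ± 1.24 in cKO. Polr1b, its partner in the catalytic core, did not: it averaged 9.88 and 9.36 in WT, and 8.17 and 9.73 in cKO.

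Both members of the box C/D particle core that bind each other, Nop56 and Nop58, fell in both genotypes. Nop56 stood at 62.4, 52.4 and 57.6 scaled TPM in WT ex vivo and at 30.5, 33.8 and 31.8 in WT stimulated, a log2 change of -0.82 (SE 0.11, adjusted p = 0.000195). In cKO it averaged 45.3 ± 5.33 ex vivo and 30.0 ± 2.70 after stimulation. Nop58 (chr1:59741853-59768968, plus strand) stood at 36.9, 29.0 and 31.7 in WT ex vivo and at 20.3, 23.3 and 20.8 in WT stimulated, a log2 change of -0.57 (SE 0.13, adjusted p = 0.00595). In cKO Nop58 stood at 34.0, 27.5 and 33.3 ex vivo and at 17.1, 20.6 and 15.4 after stimulation, a log2 change of -0.81 (SE 0.13, adjusted p = 0.000614). The WT call of Nop56 was lost with TPM as deposited (adjusted p = 0.0695), and that of Nop58 there (adjusted p = 0.252) and with a filter at 1 TPM (adjusted p = 0.0969) or none (adjusted p = 0.11). The enzyme of the same particle, Fbl, averaged 19.8 ± 3.54 and 16.6 ± 0.58 in WT and 16.6 ± 4.24 and 15.9 ± 2.56 in cKO, and did not pass the test. The U3-specific protein Rrp9 averaged 13.1 and 14.5 in WT, and 13.0 and 14.0 in cKO. In all, 2 of the 4 box C/D proteins fell in each genotype (50%), compared with 19.3% of all tested genes in WT and 26.5% in cKO.

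In the box H/ACA particle, Nop10 fell on stimulation in both genotypes. It was called lower in cKO ex vivo, which held in 19 of 26 alternatives, and was not called between genotypes after stimulation. Its log2 change on stimulation was -0.85 in WT (SE 0.13, adjusted p = 0.000732) and -0.62 in cKO (SE 0.13, adjusted p = 0.00413), so that its level was highest in WT ex vivo (57.4 ± 9.54), intermediate in cKO ex vivo (35.5 ± 3.70) and WT stimulated (31.2 ± 1.57), and lowest in cKO stimulated (22.9 ± 3.24). The intermediate groups overlapped in level. The cKO call was lost with quantile normalization (-0.28, adjusted p = 0.0723). Nhp2, which contacts Nop10 in the particle, fell in cKO from 25.8 ± 3.11 to 17.5 ± 1.5, and averaged 27.1 and 21.4 in WT, where it did not pass the test. Dkc1 averaged 13.0 and 11.3 in WT and 11 and 9.27 in cKO, and Gar1 15.4 and 13.6 in WT and 13.9 in both cKO groups.

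**Figure D3:**
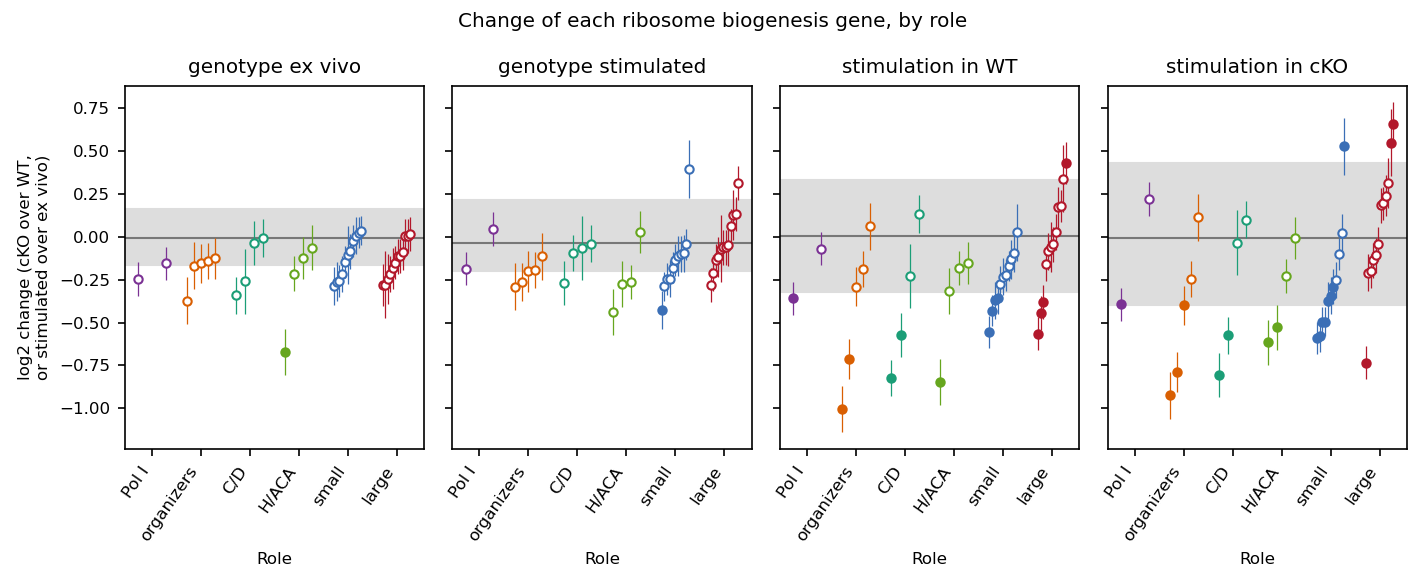
log2 change of each tested member (vertical axis, ± SE) by role (horizontal axis) in 4 comparisons; filled points passed an adjusted p of 0.05, open points did not. The grey band spans the middle quartiles of all 13318 tested genes and the grey line their median. Changes with genotype cluster just below 0, whereas on stimulation the members spread from -1.0 for Npm1 in WT to 0.66 for Nop2 in cKO.

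Among the 11 small subunit factors, 4 fell and 0 rose in WT (6 passed an unadjusted p of 0.05, or 54.5% compared with 42.5% of all tested genes), and 7 fell and 1 rose in cKO (9 passed, or 81.8% compared with 52.5%), with medians of -0.23 and -0.34. That is 36.4% lower in WT and 63.6% lower in cKO, compared with 19.3% and 26.5% of all tested genes. Tsr1 (chr11:74711573-74722844, plus strand), a GTPase-like factor of late small subunit maturation, stood at 24.4, 22 and 23.8 scaled TPM in cKO ex vivo and at 16.3, 15.0 and 14.3 in cKO stimulated. Its log2 change in cKO was -0.59 (SE 0.09, adjusted p = 0.000568). The size of that fall moved with the processing, to -1.11 with a filter at 1 TPM, -1.10 with no filter, -0.90 with TPM as deposited, -0.39 with quantile normalization and -0.35 with a filter at 10 TPM, each with the call kept. In WT it fell as well, from 26.0 ± 2.52 to 17.4 ± 1.43. The UtpA subunit Wdr43 fell from 39.8 to 29.3 in WT and from 40.6 to 28.4 in cKO, and Utp18 fell from 13.7 to 10.5 and from 13.5 to 8.70. The export factor Ltv1 fell in WT, from 28.3 to 21.6, and averaged 24.2 and 20.1 in cKO without passing the test. Utp15, Heatr1, Utp20 and Ddx10 fell in cKO and did not pass the test in WT.

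Noc4l, which pairs with Nop14 in small subunit assembly, was the small subunit factor that rose, in cKO. It stood at 14.9, 16.8 and 14.0 scaled TPM in cKO ex vivo and at 29.1, 21.2 and 17.9 in cKO stimulated. The groups did not overlap, but the stimulated values were spread widely, with replicate 1 highest. This made a log2 change of 0.53 (SE 0.17, adjusted p = 0.0272). The call was lost without cKO ex vivo replicate 1 or 3 or cKO stimulated replicate 1 or 2 (log2 change 0.35 to 0.52, adjusted p of up to 0.0887). With a filter at 1 TPM the log2 change was 0.0067 (adjusted p = 0.99), with no filter 0.017 and with TPM as deposited 0.21, and the call was lost in each, as it was in a fit of only the groups compared (adjusted p = 0.0561). In WT it averaged 16.6 ex vivo and 16.9 after stimulation. Nop14 averaged 25.3 and 23.0 in WT, and 21.0 and 21.4 in cKO.

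The large subunit factors were the most divided role. Of 12 tested, 3 fell and 1 rose in WT, and 1 fell and 2 rose in cKO, with medians of -0.05 and 0.07. That is 33.3% called in WT and 25% in cKO, compared with 32% and 43.8% of all tested genes. The gene that rose in both genotypes was Nop2 (chr6:125081901-125094771, plus strand), a methyltransferase of the large subunit RNA. It stood at 17.4, 21.0 and 23.3 scaled TPM in WT ex vivo and at 31.7, 26.0 and 26.1 in WT stimulated, and at 15.6, 16.8 and 17.6 in cKO ex vivo and 30.5, 25.9 and 24.5 in cKO stimulated. Each stimulated library lay above each ex vivo library. The log2 change was 0.43 in WT (SE 0.12, adjusted p = 0.022) and 0.66 in cKO (SE 0.12, adjusted p = 0.00179). The WT call was lost without WT ex vivo replicate 1 (0.32, adjusted p = 0.0824) or WT stimulated replicate 1 (0.34, adjusted p = 0.0889), and both calls were lost with a filter at 1 TPM (0.18 and 0.13), with no filter (0.21 and 0.14) and with TPM as deposited (0.62 and 0.34). The WT call was also lost in a fit of only the groups compared (adjusted p = 0.0532).

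Nop16, another large subunit factor, stood at 4.64, 4.07 and 5.55 scaled TPM in cKO ex vivo and at 7.23, 5.71 and 9.63 in cKO stimulated. Its log2 change was 0.55 (SE 0.20, adjusted p = 0.0421). This low-level call was lost without any of WT ex vivo replicate 2, cKO ex vivo replicates 1 and 2, WT stimulated replicates 1 and 2 and cKO stimulated replicates 1 and 3 (log2 change 0.42 to 0.57, adjusted p of up to 0.125, the latter without cKO stimulated replicate 3). With a filter at 1 TPM the log2 change was 0.072 (adjusted p = 0.848), with no filter 0.082, with TPM as deposited 0.26 and with quantile normalization 0.34, and the call was lost in each, as it was in a fit of only the groups compared (adjusted p = 0.0709). Gnl3 (chr14:31825620-31832275, minus strand) went the other way. It stood at 45.9, 41.4 and 40.7 in WT ex vivo and 28.3, 27.1 and 30.0 in WT stimulated, and at 42.7, 34.0 and 41.9 in cKO ex vivo and 24.9, 22.7 and 22.3 in cKO stimulated. The fall came to -0.57 in WT on the log2 scale (SE 0.10, adjusted p = 0.00126) and -0.73 in cKO (SE 0.10, adjusted p = 0.000196). The WT call was lost with a filter at 1 TPM (adjusted p = 0.0547), with no filter (adjusted p = 0.0594) and with TPM as deposited (adjusted p = 0.252). Rrp1b and the helicase Ddx18 fell in WT, from 10.7 to 7.59 and from 14.6 to 11, and did not pass the test in cKO.

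The other large falls also moved in size. In cKO, a filter at 1 TPM gave log2 changes of -1.46 for Npm1, -1.33 for Ncl, -1.33 for Nop58, -1.26 for Gnl3 and -1.14 for Nop10, each still called. No filter gave -1.45, -1.32, -1.32, -1.25 and -1.13 in that order. A filter at 10 TPM gave -0.49 for Gnl3 and -0.37 for Nop10, and TPM as deposited gave -0.94 for Nop10. Quantile normalization gave -0.45 for Npm1, -0.27 for Ncl and -0.38 for Gnl3 in cKO. In WT it gave -0.62 for Npm1, -0.54 for Nop10, -0.53 for Nop56, -0.38 for Nop58, -0.33 for Gnl3 and -0.32 for Ncl, and these calls were kept.

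The PeBoW complex, in which Pes1, Bop1 and Wdr12 act together in large subunit processing, showed no called change. Bop1 averaged 30.7 ± 4.90 ex vivo and 34.5 ± 1.18 after stimulation in WT, and 26.7 ± 0.99 and 31.8 ± 3.85 in cKO. Pes1 averaged 22.5 and 21.2 in WT and 21.1 and 18.2 in cKO. Wdr12, which was not tested, ranged from 3.41 to 5.10 over the 12 libraries. Noc3l, Ddx27, Grwd1, Nip7 and Rrs1 also passed the test in no comparison.

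A ratio of 2 members within a library does not depend on the library factor. This ratio was formed for genes chosen after their values were seen, so it is a description. Nop2 over Npm1, in TPM as deposited, was 0.19, 0.25 and 0.23 in WT ex vivo and 0.65, 0.58 and 0.60 in WT stimulated. In cKO it was 0.19, 0.30 and 0.23 ex vivo and 0.84, 0.66 and 0.70 after stimulation. Each stimulated library thus held more Nop2 relative to Npm1 than each ex vivo library. Bop1 over Ncl was 0.25 to 0.35 over the 6 ex vivo libraries and 0.53 to 0.65 over the 6 stimulated ones. These ratios show unequal change of the 2 genes in each pair, not which of them changed.

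Of the members, 7 host small nucleolar RNA genes within their own bounds on the same strand: Ncl, Nop56, Nop58, Dkc1, Wdr43, Tsr1 and Gnl3. The products of such genes guide or process ribosomal RNA. On stimulation 6 of these 7 fell in WT, and 6 of 7 fell in cKO, with median log2 changes of -0.57 and -0.59. Of the 31 tested members without such a gene, 7 fell and 1 rose in WT, and 10 fell and 3 rose in cKO, with medians of -0.16 and -0.11. Among all 220 tested genes that hold a small nucleolar RNA gene, 35% fell in WT and 50.5% fell in cKO, compared with 19.1% and 26.1% of the genes that do not. This split was made with the members' values known and carries no test. Across the 38 members, those of higher mean level had lower log2 changes on stimulation (Spearman's rho -0.42 in WT and -0.50 in cKO). Exon length followed the members' change less closely (-0.09 and -0.19). Over 13255 tested genes with annotation, the rho with exon length was -0.09 in WT and -0.24 in cKO. A value for level over all tested genes is not given here.

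Further genes of the pathway are given here beside the 12.7% of all tested genes that rose and 19.3% that fell in WT, and the 17.3% and 26.5% in cKO. Of 87 further ribosome biogenesis genes, 24 fell and 8 rose in WT, and 28 fell and 10 rose in cKO, with medians of -0.15 and -0.09. That is 27.6% lower in WT and 32.2% lower in cKO. Ubtf, the upstream binding factor of RNA polymerase I, had log2 changes of -0.89 in either genotype (SE 0.09), and Utp11l, a small subunit factor, rose by 0.71 in WT and 0.49 in cKO. Of the cytosolic ribosomal protein genes, 57 of 79 fell in WT (72.2%) with 0 rises, and 48 of 79 fell in cKO (60.8%) with 1 rise, with medians of -0.64 and -0.53. Of 31 proteasome genes, 6 rose and 3 fell in WT, and 1 rose and 9 fell in cKO, so that 29.0% were called in WT and 32.3% in cKO, compared with 32% and 43.8% of all tested genes.

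Known responses to the receptor did not all rise against the ex vivo cells. Egr2, Irf4 and Myc rose in both genotypes, with Myc at 59.7 ± 12.4 scaled TPM in WT ex vivo and 90.3 ± 6.21 in WT stimulated. Nr4a1 and Cd69, which respond to the receptor within the first hours, fell in WT. In cKO, Cd69 fell (log2 change -1.71, limma adjusted p = 9.42e-05), and Nr4a1 did not pass the test (0.16, adjusted p = 0.464). Nr4a1 stood at 857 to 1219 scaled TPM in WT ex vivo and 654 to 716 in WT stimulated, and Cd69 at 288 to 524 and 132 to 164. The summed Treg markers were 1821 to 2070 in WT ex vivo and 1064 to 1196 in WT stimulated. In cKO they were 1857 to 2086 ex vivo and 1080 to 1486 after stimulation. The markers within this sum differed in course: in cKO, Foxp3 stood at 147 to 158 ex vivo and 153 to 240 after stimulation, and Il2ra at 121 to 147 and 165 to 244. Ctla4 stood at 622 to 703 ex vivo and 218 to 296 after stimulation. In WT, Foxp3 stood at 157 to 189 ex vivo and 88.6 to 123 after stimulation, Il2ra at 115 to 148 and 112 to 124, and Ctla4 at 708 to 829 and 201 to 210. The summed myeloid markers averaged 11.6 ± 4.68 scaled TPM ex vivo and 15.4 ± 2.62 after stimulation in WT, and 11.4 ± 2.70 and 19.0 ± 4.40 in cKO. The NK markers averaged 5.12 ± 1.85 and 6.36 ± 1.14 in WT and 5.04 ± 1.64 and 8.2 ± 1.6 in cKO. The erythroid markers averaged 3.98 ± 1.45 and 5.02 ± 0.26 in WT and 3.67 ± 1.31 and 6.36 ± 2.76 in cKO. No single myeloid, NK or erythroid marker exceeded 4.59 scaled TPM in a library, so these sums lie near background. The library cKO stimulated replicate 3 was highest in each of these sums and in receptor background (1.44). The CD8 T markers averaged 11.5 and 13.1 in WT and 9.74 and 12.2 in cKO, and the B cell markers 18.8 and 17.1 in WT and 26.2 and 26.4 in cKO. Receptor background averaged 0.69 scaled TPM in WT ex vivo and 0.85 in WT stimulated, and 0.72 and 1.13 in cKO. Gm10800 took on average 26.0% and 38.1% of TPM in WT, and 22.9% and 48.8% in cKO. With receptor background subtracted, the members showed 1 rise and 13 falls in WT (median log2 change -0.17) and 8 rises and 12 falls in cKO (median -0.093). The part of the shifts in Gm10800 and in the marker lists in the falls above was not tested.

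**Figure D4:**
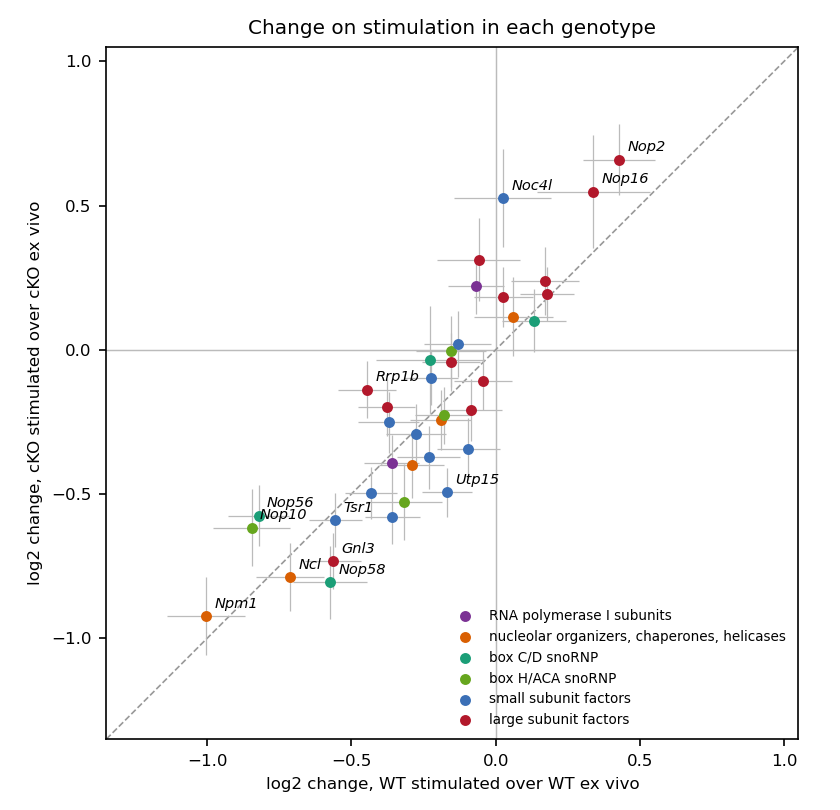
log2 change on stimulation in WT (horizontal axis) against that in cKO (vertical axis) for 38 members, with SE bars and colours by role; the dashed line marks equal change. Npm1 lies lowest in both genotypes (-1.0 and -0.92) and Nop2 highest (0.43 and 0.66), and Noc4l lies furthest above the line (0.03 and 0.53).

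The last comparison asked whether loss of Ikaros changed the response to stimulation. The WT and cKO contrasts share no library. The difference between them passed the test by limma for 0 of 38 members, compared with 1.1% of all tested genes. Of the 38, 1 passed an unadjusted p of 0.05 (2.63%, compared with 14.5% of all tested genes), and limma with voom on the recovered reads called 0 as well. The 3 members of smallest p were Utp15, Rrp1b and Noc4l. Utp15 averaged 18.9 and 16.7 scaled TPM in WT ex vivo and stimulated and 19.5 and 13.5 in cKO, an interaction of -0.33 on the log2 scale (95% interval -0.59 to -0.06, adjusted p = 0.247). Rrp1b averaged 10.7 and 7.59 in WT and 10.7 and 9.68 in cKO, an interaction of 0.31 (95% interval -0.0048 to 0.62, adjusted p = 0.353), which was 0.045 with a filter at 1 TPM and 0.029 with none, and whose sign turned with TPM as deposited (-0.17). For Noc4l the interaction was 0.50 (95% interval -0.02 to 1.03, adjusted p = 0.366). It was 0.32 without cKO stimulated replicate 1, 0.23 with a filter at 1 TPM, 0.21 with no filter, 0.0025 with TPM as deposited (adjusted p = 0.997) and 0.79 with array weights (adjusted p = 0.0792). Under the filter at 1 TPM, no filter and TPM as deposited, that of Utp15 was -0.59, -0.61 and -0.82 (adjusted p of 0.697, 0.671 and 0.104), and it was -0.20 with a filter at 10 TPM (adjusted p = 0.36). For Nop10 the interval ran from -0.19 to 0.65 and for Npm1 from -0.34 to 0.50, so differences in response within these bounds are not excluded.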

How the data were processed

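Total RNA of 12 Treg samples was depleted of ribosomal RNA and sequenced as strand-specific 51-base paired ends. The authors aligned reads with STAR 2.6.0c to mm9, counted them per gene with HTSeq 0.6.1 and removed ribosomal RNA genes. The signal values they deposited are TPM per gene and library, with a column of log2 TPM values to which the deposited file adds the TPM of 1 read. From both columns whole reads were recovered (99.998% of 434664 values within 0.01 read). A table of the authors' own comparisons holds fold changes and p-values and was not used.

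Because Gm10800 takes a varying share of TPM, a gene was kept if any of the 4 groups averaged 5 TPM or more (13318 genes), and libraries were rescaled over these genes by trimmed mean of M-values (30% and 5% trims). Then log2(scaled TPM + 1) was fitted with limma 3.58.1 (R 4.3.3; lmFit, eBayes with trend; 4 groups, two-sided). P-values were adjusted by Benjamini-Hochberg over all tested genes, with a call under 0.05. Fold changes are on this log2(value + 1) scale, which understates low genes. The procedure was run on simulated reads, with known changes in some genes and otherwise the WT ex vivo mean in all libraries. That run built in no shift of Gm10800 or background between groups, so it cannot address them. Samples are labelled as separate biological replicates (n = 3). Members and lists were chosen with earlier results of these data known. Test values are printed for the 6 largest called rises and falls per comparison, or the 3 smallest p where none was called; levels may be given for any member. Alternatives covered filters, pseudocounts, scaling, weights, recovered reads, a replicate block, the groups fitted and leaving out each library; subtraction of receptor background was added after seeing the data. Copies were sought with minimap2 2.31 against mm9 and positions taken from the GENCODE annotation of that assembly.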

Additional observations from a re-analysis of the deposited data

How the results depend on the processing

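Of 26 alternatives per comparison (25 for the interaction), the falls of Npm1 on stimulation in both genotypes, of Nop10 in WT, and of Nop58, Ncl, Gnl3 and Tsr1 in cKO kept their direction and call in each; the causes of the changes below were not tested. The count of members called with genotype ex vivo (1) became 0 at a 1 TPM filter, with no filter, with TPM as deposited or with only the groups compared, 2 with voom or receptor background subtracted and 3 at 10 TPM. With genotype after stimulation (1) it became 0 at 1 or 10 TPM, with no filter, no trend, the replicate block or only the groups compared, 2 with voom, 3 with quantile normalization and 6 with array weights. On stimulation in WT (14) it became 5 at 1 TPM and with no filter and 2 as deposited. The median log2 change of members ex vivo (-0.15) turned to 0.081 as deposited. After stimulation (-0.12) the genotype median was -0.41 at 1 TPM, -0.002 at 10 TPM and -0.40 with no filter or as deposited; it was -0.053 with receptor background subtracted, -0.059 with array weights and -0.076 with quantile normalization. On stimulation in WT (-0.21) it was -0.44, -0.11, -0.42 and -0.017 in the same order, and -0.091 with quantile normalization. In cKO (-0.22) it was -0.72, 0.0032, -0.71 and -0.52, -0.056 with quantile normalization and -0.093 with receptor background subtracted. The interaction median (0.03) was -0.23, 0.13, -0.24 and -0.46, and that of Rrp1b turned to -0.17 as deposited. The 1 TPM filter moved the median of the main tested genes by -0.23 in WT and -0.50 in cKO on stimulation; the members' median stayed under it by 0.21 and 0.22, and at 10 TPM by 0.11 and 0.01. Leaving out each library gave 0 to 1 called member for either genotype comparison, 11 to 16 and 13 to 19 on stimulation in WT and cKO, and 0 for the interaction, with medians of -0.20 to -0.098, -0.20 to -0.043, -0.24 to -0.18, -0.27 to -0.13 and -0.040 to 0.10. Without cKO stimulated replicate 3, stimulation in cKO gave 3 rises and 11 falls. Counts over all genes ranged from 56 to 1232 with genotype ex vivo (704), 68 to 2336 after stimulation (923), 1694 to 4890 on stimulation in WT (4262), 4098 to 7374 in cKO (5835) and 0 to 505 for the interaction (147).

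Deviations of same-numbered libraries from their groups correlated at -0.21 to 0.26. With 3 libraries per group, this cannot decide whether replicate numbers pair the libraries. With the replicate block, 1, 0, 15 and 19 members were called in the genotype comparisons ex vivo and stimulated and on stimulation in WT and cKO, and Ddx10 lost its call (adjusted p = 0.083).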
